A study of Mus musculus with 24 samples.

Results

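Transcript levels of 54 genes for ATP-dependent chromatin remodelers, histone deacetylases, lysine demethylases and lysine or arginine methyltransferases were compared across 12 groups of mouse pluripotent cells. The genes were chosen by symbol, from the prefixes Hdac, Smarc, Chd with a digit, Kdm, Jmjd, Setd, Ehmt, Suv39h and Prmt, with no use of their measured differences. Of 66 genes with such a symbol on the array, 6 were left out as sex-linked (Hdac6, Hdac8, Kdm5c, Kdm5d, Kdm6a and Smarca1). Another 6 (Chd6, Hdac9, Jmjd4, Kdm2b, Kdm4d and Prmt9) had no probe with a detection p-value under 0.01 on both arrays of any group. The 54 that remained are 11 Smarc genes, 5 Chd genes, 8 Hdac genes, 12 Kdm and Jmjd genes, 3 Ehmt and Suv39h genes, 8 Setd genes and 7 Prmt genes, of 8932 genes tested. Each is represented by its detected probe with the highest mean, and 40 of the 54 were detected on both arrays of all 12 groups.

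The study measured total RNA of embryonic stem (ES) cells, epiblast stem cells (EpiSCs) and embryonal carcinoma (EC) cells with and without extra Sox2 on 24 MouseRef-8 v2 BeadChip arrays, 2 per group. The arrays of a group are called biological replicates in the series description, with no statement that they came from separate cultures, so the p-values measure the spread between these samples. ESCm is a male ES cell line whose strain the labels do not give, and ESCf is a female ES cell line of OG2 background. F9 EC and P19 EC are established mouse EC lines labelled male, and F9-Sox2 and P19-Sox2 are the same lines overexpressing Sox2. EpiSCf is a female OG2 EpiSC line and Epi-Sox2f is labelled its Sox2-overexpressing derivative. EpiSCm is a male EpiSC line of GOF18 background. Its Sox2-overexpressing derivatives were grown in EpiSC conditioned medium (EpiSox2mL2) or in ES cell medium (EpiSox2mE1 and EpiSox2mE2, called ES-like 1 and 2). The Sox2 in all 6 derivatives is wild type, and the labels name neither the promoter that drives it nor whether a derivative is 1 clone. EpiSC resemble the postimplantation epiblast and are called primed, whereas ES cells resemble the preimplantation epiblast and are called naive.

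Chromatin remodelers use ATP to slide or evict nucleosomes, and the SWI/SNF complexes carry either Smarca4 (Brg1) or Smarca2 (Brm) as their motor; mouse ES cells are known for a form built on Smarca4. Histone deacetylases remove acetyl groups and mostly act in repressor complexes such as NuRD, Sin3 and CoREST. Methylation of lysine 9 of histone H3, a repressive mark, is written by Ehmt1, Ehmt2, Suv39h and Setdb1 and erased by Kdm3 and Kdm4 enzymes, among which Kdm3a and Kdm4c are known for supporting self-renewal of mouse ES cells.

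Sox2 and sex-linked transcripts checked the labels. Sox2 on its highest probe was 2.31-fold higher in F9-Sox2 than in F9 EC (adjusted p = 3.7e-06, limma with Benjamini-Hochberg adjustment over all genes, as for all adjusted p below) and 1.77-fold higher in P19-Sox2 than in P19 EC. It was 1.91-fold higher in EpiSox2mL2 than in EpiSCm. The arrays labelled Epi-Sox2f read 8.76 and 8.60 for Sox2 on the log2 scale against 8.83 and 8.90 in EpiSCf (log2 difference -0.18, SE 0.13, adjusted p = 0.32), and a second Sox2 probe fell there by 1.14 on the log2 scale. That second probe gave 0.07 in F9-Sox2 and -0.38 in P19-Sox2, neither called, and 0.77 in EpiSox2mL2 (adjusted p = 0.0017). The Sox2 label of Epi-Sox2f is therefore borne out by neither probe, and those of F9-Sox2 and P19-Sox2 by the highest probe only. Eif2s3y, a Y-linked gene, was detected on neither array of F9 EC or F9-Sox2, which the labels call male, and on both arrays of the other male groups. Naive markers were detected for 8 of 8 genes in ESCm, 7 of 8 in ESCf and 0 of 8 on both arrays of EpiSCf, and for 4 of 8 in EpiSCm. Primed markers were detected for 5 of 6 genes in both EpiSC lines. Of 8 fibroblast and feeder markers, 4 were detected on both arrays of each ES cell group and 1 or 2 in the other groups. The 8 arrays of the GOF18 family were dimmer (median signal 90.2 to 101 against 119 to 152 on the other 16), so GOF18 strain, cell line and array set cannot be told apart wherever these arrays are compared with others. Values are log2 intensities after background correction and quantile normalization; a level of 1 probe is not compared with that of another.

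Promoter sequences are shown for 3 members called in the same direction in both EpiSC to ES cell comparisons, chosen after their values were seen: Kdm3a, an H3 lysine 9 demethylase that was lower in EpiSCs, and Kdm8 and Smarca2, which were higher. RefSeq windows on GRCm38.p6, from 250 bases before to 50 bases after an annotated start, matched 47 of the 54 genes; the windows lie at chr6:71632868-71633167 on the minus strand for Kdm3a (the first of 3 windows listed), chr7:125444370-125444669 on the plus strand for Kdm8 and chr19:26604910-26605209 on the plus strand for Smarca2. Capitals mark matches, on either strand, to the Sox core AACAAT, the octamer ATGCAAAT, the hypoxia element core ACGTG, the CCAAT box and the GC box GGGCGG.
Kdm3a: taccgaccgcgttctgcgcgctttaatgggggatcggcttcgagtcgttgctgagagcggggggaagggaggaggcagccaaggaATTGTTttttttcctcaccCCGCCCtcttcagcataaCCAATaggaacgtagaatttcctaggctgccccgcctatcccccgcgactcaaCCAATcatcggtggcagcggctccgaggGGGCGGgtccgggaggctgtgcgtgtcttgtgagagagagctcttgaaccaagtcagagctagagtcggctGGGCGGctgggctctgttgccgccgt
Kdm8: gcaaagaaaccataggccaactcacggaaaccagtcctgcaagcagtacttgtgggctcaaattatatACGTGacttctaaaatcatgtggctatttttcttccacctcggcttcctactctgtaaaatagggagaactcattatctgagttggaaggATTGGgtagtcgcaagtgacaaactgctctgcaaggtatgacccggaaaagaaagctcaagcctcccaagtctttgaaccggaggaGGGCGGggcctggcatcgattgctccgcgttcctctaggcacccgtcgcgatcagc
Smarca2: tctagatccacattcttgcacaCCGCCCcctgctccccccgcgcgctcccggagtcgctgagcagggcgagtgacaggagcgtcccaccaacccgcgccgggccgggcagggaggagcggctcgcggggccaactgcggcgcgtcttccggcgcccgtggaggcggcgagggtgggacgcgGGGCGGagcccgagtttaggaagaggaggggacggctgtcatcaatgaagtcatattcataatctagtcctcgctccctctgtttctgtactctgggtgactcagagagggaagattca
The Kdm3a window holds 1 Sox core, 2 CCAAT boxes and 3 GC boxes. In the Kdm8 window there is 1 match each to the hypoxia element core, the CCAAT box and the GC box, and the Smarca2 window has 2 GC boxes. Among 32851 such windows, 10.7% hold the Sox core, 1.74% the octamer, 19.6% the hypoxia element core, 37.4% the CCAAT box and 35.7% the GC box. These are letter matches only.

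Across the 12 groups every member differed (54 of 54 by limma's F test at an adjusted p under 0.05, against 97.9% of all tested genes), so this count says nothing particular to the chromatin genes. The distance from the lowest to the highest group mean had a median of 1.42 log2 units over the members and 1.70 over all genes. It exceeded 1 for 46 members (85.2%, against 88.2% of all genes) and 2 for 17 (31.5%, against 37.4%). Setd3, a SET-domain enzyme that methylates actin, had the widest range at 4.26, followed by Smarca2 (3.52), the Kdm3-family protein Jmjd1c (3.43), the JmjC protein Kdm8 (3.03) and the H3 lysine 27 demethylase Kdm6b (2.97). By family, the median range was 2.22 for the Kdm and Jmjd genes, 2.02 for Ehmt and Suv39h, 1.79 for Smarc, 1.39 for Chd, 1.21 for Hdac, 1.16 for Prmt and 1.1 for Setd. The heat map of group means shows the red and blue cells concentrated in a minority of rows, with most Prmt and Setd rows pale.

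**Figure D1:**
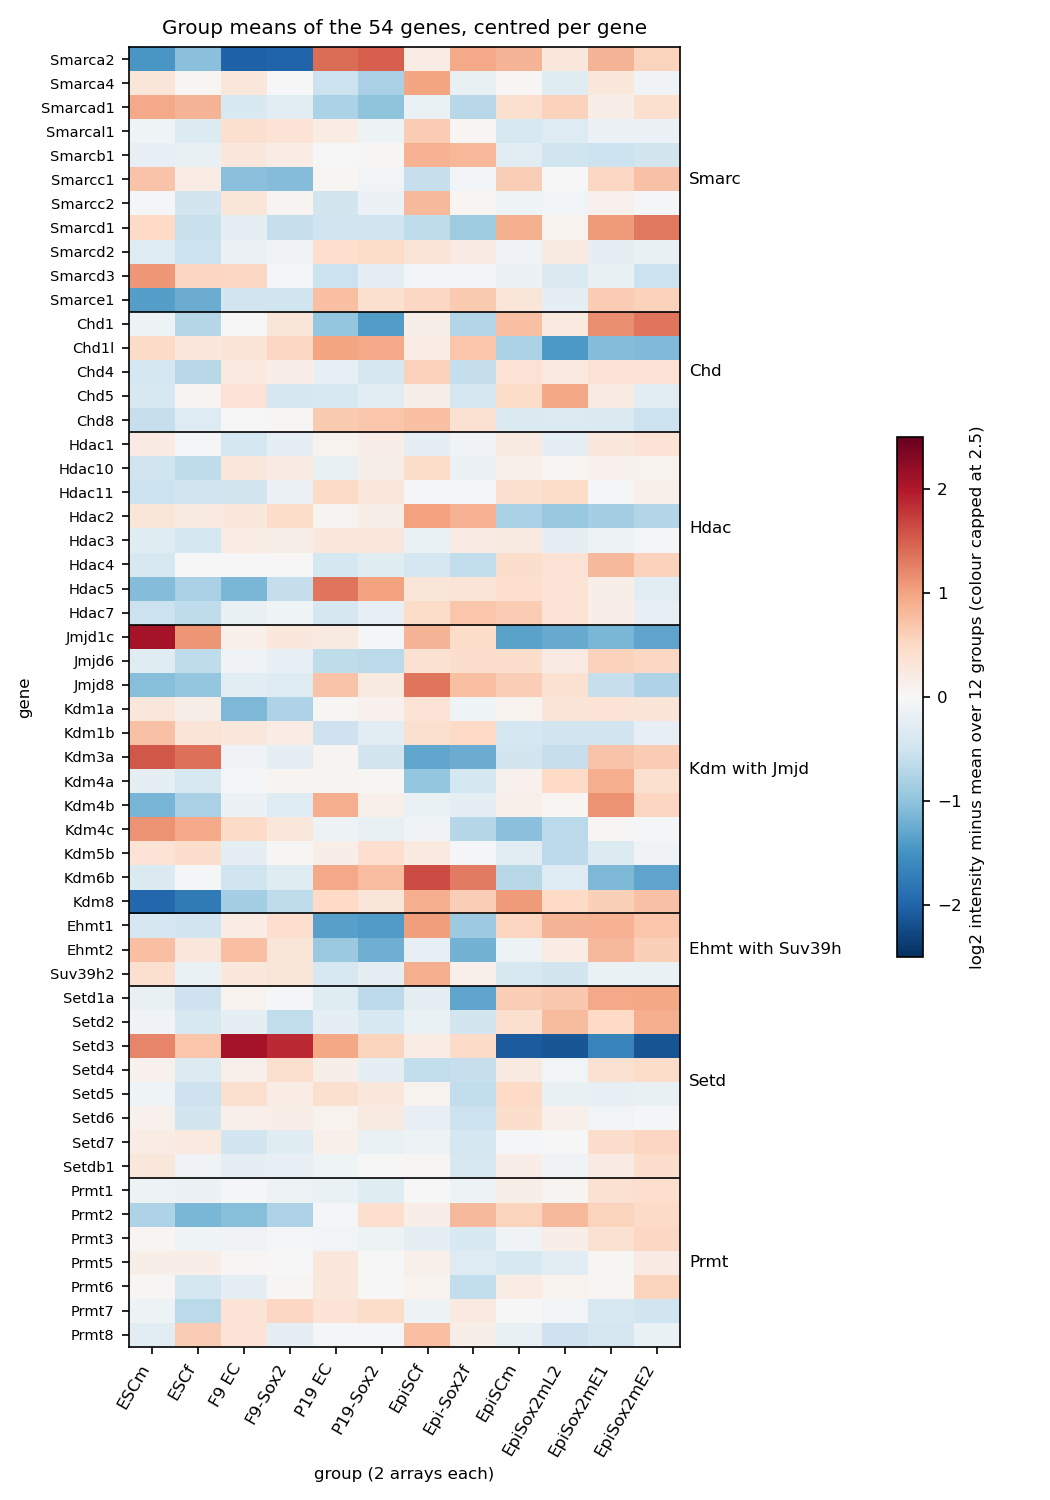
Group means of the 54 members (rows, by family) in 12 groups of 2 arrays (columns), as log2 intensity minus the gene's mean over the 12 groups, with the colour capped at 2.5. Setd3 (range 4.26) is low in the 4 GOF18 groups at the right, Kdm3a is high in the ES cells at the left, and Smarca2 and Kdm8 are low there.

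EpiSCs were first compared with ES cells, female with female (EpiSCf minus ESCf, both OG2) and male with male (EpiSCm minus ESCm). In the female pair 33 members (61.1%) passed the test, against 60.3% of all genes: 25 higher in EpiSCf, where 33% of all genes were higher, and 8 lower, against 27.4%. In the male pair 32 (59.3%) passed, against 70%, with 19 higher, where 41.3% of all genes were higher, and 13 lower, against 28.7%. Scaling each array to a common median instead of by quantiles moved the median of all genes from 0.07 to 0.24 in the female pair and from 0.18 to -0.17 in the male pair, and the members' calls to 28 higher and 6 lower in the female pair and to 11 higher and 22 lower in the male pair. The direction of the male total therefore depends on the scaling. These pairs share no array. Members called in both numbered 22 of the 54, from 33 called in the female and 32 in the male pair. Of these, 14 were higher in both (10 with median scaling), 6 lower in both (5 with median scaling) and 2 went opposite ways (6 with median scaling). Of all 8932 tested genes, 1999 were higher in both, 1383 lower in both and 665 went opposite ways, so 83.6% of those called in both had the same direction. Markers of other cells moved with these pairs. The summed level of 8 fibroblast and feeder markers was 9.02 to 9.54 in the ES cells and 8.36 to 8.67 in the EpiSCs, and that of 5 neural markers, of which 1 was detected on both arrays of each of these groups, was 7.47 to 7.67 and 8.77 to 9.04. The summed level of 7 extraembryonic endoderm markers was 8.51 to 8.64 in ESCf and 7.39 to 7.45 in EpiSCf, with 3 and 0 of them detected on both arrays, and 8.49 to 8.51 in ESCm and 8.25 to 8.37 in EpiSCm, with 2 and 3 detected. Afp, Ttr and Gata4 were detected on both arrays of none of these groups. Their part in the differences was not tested.

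Among the SWI/SNF genes, Smarca2 and Smarce1 were higher in both EpiSC lines. Smarca2, the alternative motor, read 6.27 and 6.04 in ESCf and 7.29 and 7.46 in EpiSCf, a 2.33-fold rise (log2 1.22, SE 0.25, adjusted p = 0.00039). In the male pair it went from 5.65 and 5.83 in ESCm to 8.12 and 7.95 in EpiSCm, a 4.89-fold rise (log2 2.29, SE 0.25, adjusted p = 2.2e-07). The arrays of the groups did not overlap in either pair. Smarce1, a DNA-binding subunit common to these complexes, stood at 8.65 and 8.45 in ESCf against 10.21 and 10.40 in EpiSCf, 3.38-fold higher (adjusted p = 6.5e-08), and at 8.42 and 8.40 in ESCm against 10.37 and 9.81 in EpiSCm, 3.2-fold higher (adjusted p = 9.2e-08). Its second probe also rose, by 1.78 and 2.15 on the log2 scale. Smarca4, the motor known from ES cells, read 7.36 and 7.53 in ESCf, 8.44 and 8.31 in EpiSCf, 7.95 and 7.44 in ESCm and 7.35 and 7.51 in EpiSCm; it rose 1.91-fold in the female pair (adjusted p = 0.0036) and was not called in the male pair. Smarcad1, a remodeler outside SWI/SNF that acts on heterochromatin, fell in both pairs, 2.02-fold in the female and 1.46-fold in the male one. In all, 7 of 11 Smarc genes rose and 3 fell in the female pair (the same counts with median scaling). Of all genes 33% rose and 27.4% fell there. In the male pair 2 rose and 2 fell (2 and 6 with median scaling), against 41.3% and 28.7% of all genes. Smarcc2, among the female rises, passed the detection filter only through EpiSCf, and Smarcd3, among the falls of both pairs, only through ESCm. The filter therefore favoured the rise of Smarcc2 and the male fall of Smarcd3. Smarcc1, the scaffold subunit, fell 1.70-fold in EpiSCf on the probe used, whereas its second probe gave a log2 difference of 0.10.

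The CHD remodelers Chd1, known for keeping ES cell chromatin open, and Chd4, the motor of NuRD, were higher in both EpiSC lines on the probes used, but their other probes did not all go the same way. Chd4 read 9.04 and 9.36 in ESCf, 10.40 and 10.54 in EpiSCf, 9.55 and 9.35 in ESCm and 10.32 and 10.15 in EpiSCm, a rise of 2.41-fold (adjusted p = 2.5e-05) and 1.72-fold (adjusted p = 0.0021). A second Chd4 probe gave log2 -0.20 in the female pair and 0.66 in the male pair. The third Chd4 probe, detected on all 24 arrays, gave 1.94 in the female pair and fell by 0.91 in the male pair (adjusted p = 0.0068), so no direction is given for Chd4 in EpiSCm. Chd1 rose 1.81-fold and 1.85-fold, and its second probe gave 0.88 and -0.12. Neither Chd1 nor Chd4 kept a call in both pairs with median scaling. Chd1l, a remodeler recruited by poly-ADP-ribose, fell 2.42-fold in EpiSCm on the probe used and fell by 1.17 on its second probe.

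Of 8 deacetylases, 4 rose and 0 fell in the female pair (6 and 0 with median scaling), where 33% of all genes were higher and 27.4% lower. In the male pair 6 rose and 1 fell (3 and 2 with median scaling), where 41.3% of all genes were higher and 28.7% lower. Hdac7 and Hdac10, higher in both pairs, and Hdac11, higher in the male pair, passed the detection filter only through EpiSC lines or their derivatives. The filter therefore favoured their rises. Hdac5, a class IIa deacetylase that shuttles between nucleus and cytoplasm, stood at 8.31 and 8.49 in ESCf, 9.42 and 9.62 in EpiSCf, 8.26 and 8.01 in ESCm and 9.62 and 9.65 in EpiSCm. The rise was 2.17-fold (adjusted p = 7.3e-06) and 2.83-fold (adjusted p = 1.4e-07), no array of an EpiSC line overlapped its ES cell line, and a second probe rose as well (log2 1.45 and 2.22). Hdac7, of the same class, was detected on neither array of the ES cells and was at least 1.05-fold and at least 1.34-fold higher in EpiSCf and EpiSCm. Such a bound divides the mean of the brighter group by the lowest signal that counted as detected on the dimmer arrays, while a log2 value is always that of the fit. Hdac2, a class I deacetylase of NuRD and Sin3, went opposite ways: it read 12.14 and 12.23 in ESCf against 12.98 and 12.93 in EpiSCf (1.71-fold higher, adjusted p = 1.1e-05), and 12.25 and 12.29 in ESCm against 11.11 and 11.17 in EpiSCm (2.18-fold lower, adjusted p = 6.9e-08). Hdac1, its close relative, read 10.39 and 10.11 in ESCf, 9.90 and 10.19 in EpiSCf, 10.43 and 10.56 in ESCm and 10.43 and 10.60 in EpiSCm and was called in neither pair.

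On the probes used, the Kdm and Jmjd genes held the largest fitted log2 differences in both directions in each pair. In the male pair the largest fall was that of Jmjd1c (-3.43), which was not detected in EpiSCm. The fall of Setd3 there (-3.29) was the largest between detected levels. Kdm3a read 10.83 and 10.99 in ESCf and 8.32 and 8.17 in EpiSCf, 6.34-fold lower (log2 -2.66, SE 0.14, adjusted p = 8.3e-12). In the male pair it read 11.23 and 10.95 in ESCm and 9.21 and 8.95 in EpiSCm, 4.01-fold lower (log2 -2.01, SE 0.14, adjusted p = 4.2e-10). All 4 ES cell arrays lay above all 4 EpiSC arrays, and the second Kdm3a probe gave -2.56 and -2.18. Kdm4c, which demethylates trimethylated H3 lysine 9, went from 9.03 and 9.01 in ESCf to 8.22 and 7.75 in EpiSCf and from 9.18 and 9.22 in ESCm to 6.99 and 7.09 in EpiSCm. Its fall was 2.05-fold (adjusted p = 8e-06) and 4.47-fold (adjusted p = 3.6e-10).

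Kdm8 moved the other way. It read 5.94 and 6.18 in ESCf against 8.77 and 8.70 in EpiSCf, 6.39-fold higher (log2 2.68, SE 0.13, adjusted p = 4.3e-12), and 5.68 and 6.05 in ESCm against 8.82 and 8.96 in EpiSCm, 8.15-fold higher (log2 3.03, SE 0.13, adjusted p = 1e-12). The second Kdm8 probe, detected on 7 of the 24 arrays, gave 0.68 in the female pair and -0.14 in the male pair. The size of the Kdm8 rise, and its direction in the male pair, therefore rest on 1 probe. Jmjd8, a JmjC protein of the endoplasmic reticulum, rose 4.98-fold (adjusted p = 2.2e-07) and 3.21-fold (adjusted p = 8.9e-06). Kdm4b, a relative of Kdm4c, rose 1.57-fold and 2.45-fold, opposite to Kdm4c; its second probe gave -0.02 and 0.70. Kdm1a (LSD1), which removes methyl groups from H3 lysine 4 within CoREST, read 11.57 and 11.54 in ESCf, 11.76 and 11.74 in EpiSCf, 11.71 and 11.67 in ESCm and 11.46 and 11.54 in EpiSCm, and was called in neither pair. Under median scaling Kdm3a, Kdm4c, Kdm8, Smarca2, Smarce1, Hdac5 and Jmjd8 stayed called in the same direction in both pairs. Among these the smallest fall was -0.71, for Kdm4c in the female pair, and the smallest rise 1.01, for Hdac5 in the male pair, on the log2 scale.

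**Figure D2:**
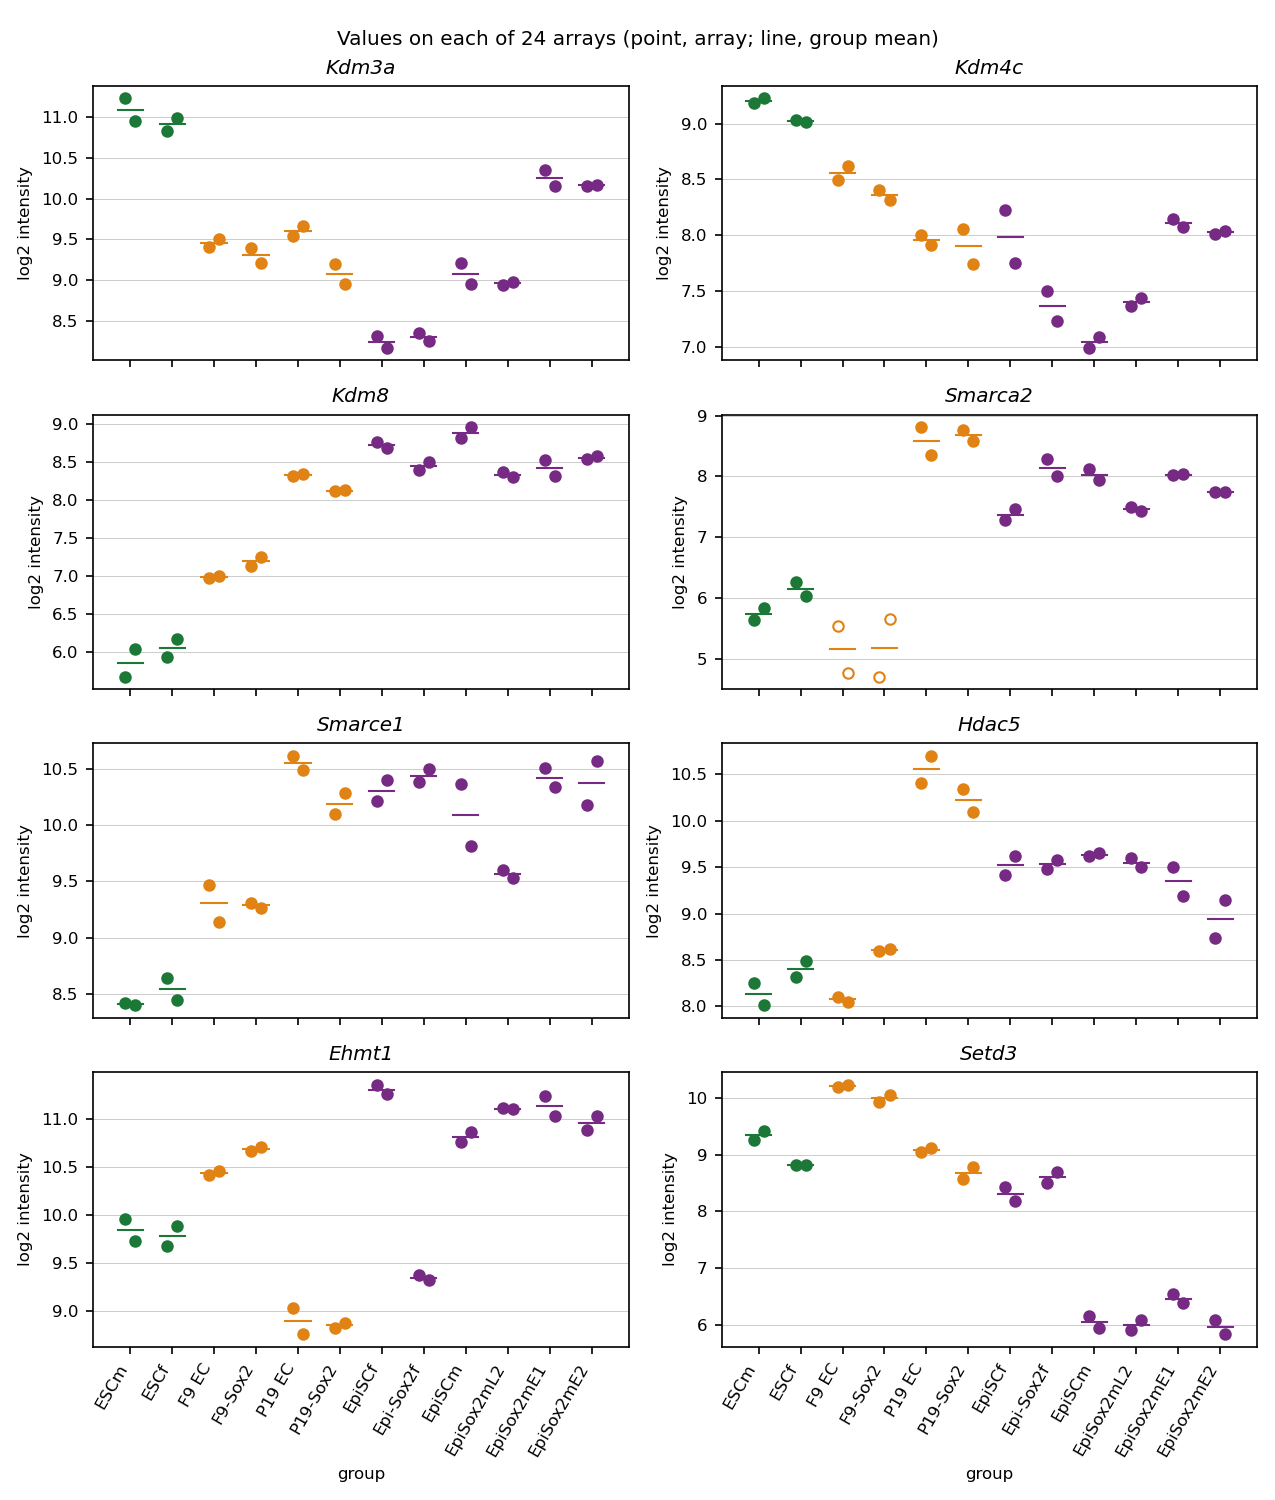
Log2 intensity of 8 members on each of 24 arrays (points; filled where both arrays of the group detected the probe) with group means (lines), for ES cells in green, EC cells in orange and EpiSC lines in purple. Kdm3a lies at 10.83 or above on the 4 ES cell arrays and at 9.21 or below on the 4 arrays of EpiSCf and EpiSCm, and Kdm8 runs the other way; Ehmt1, on the probe used, is low in P19 EC, P19-Sox2 and the arrays labelled Epi-Sox2f.

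The writers of H3 lysine 9 methylation did not move together. Ehmt1 (GLP) read 9.68 and 9.89 in ESCf against 11.36 and 11.26 in EpiSCf and 9.96 and 9.74 in ESCm against 10.76 and 10.86 in EpiSCm. It was 2.88-fold (adjusted p = 9.3e-09) and 1.95-fold (adjusted p = 3e-06) higher, on the second probe by 1.30 and 1.48. The third Ehmt1 probe, detected on 11 of the 24 arrays, gave 0.09 and 0.14 and was not called. Ehmt2 (G9a), its partner in the same enzyme complex, fell 1.40-fold (adjusted p = 0.013) and 1.85-fold (adjusted p = 7.4e-05), with -0.38 and -1.01 on the second probe; the female fall was not called with median scaling. Suv39h2 passed the detection filter only through EpiSCf, so the filter favoured its female rise. This gene, which trimethylates H3 lysine 9 and was near the detection limit, was at least 1.41-fold higher in EpiSCf and at least 1.22-fold lower in EpiSCm. Setdb1, which does so at retroelements, read 8.39 and 8.65 in ESCf, 8.57 and 8.71 in EpiSCf, 8.87 and 8.90 in ESCm and 8.93 and 8.60 in EpiSCm and was called in neither pair.

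Of the other methyltransferase genes, Setd3 fell and Prmt2 rose in both pairs. Setd3 fell from 9.26 and 9.42 in ESCm to 6.16 and 5.94 in EpiSCm, 9.77-fold (log2 -3.29, SE 0.14, adjusted p = 6.2e-13), against 8.81 and 8.82 in ESCf and 8.43 and 8.18 in EpiSCf, a 1.42-fold fall that was not called with median scaling (adjusted p = 0.4). Prmt2, an arginine methyltransferase and nuclear receptor coactivator, read 8.15 and 8.19 in ESCf, 9.41 and 9.54 in EpiSCf, 8.64 and 8.43 in ESCm and 9.78 and 9.94 in EpiSCm. It rose 2.46-fold (adjusted p = 1.8e-07) and 2.52-fold (adjusted p = 1e-07), without overlap of arrays, and its second probe rose by 1.65 and 1.18. Prmt5, which makes symmetric dimethylarginine and is required in pluripotent cells, read 11.44 and 11.53 in ESCf, 11.45 and 11.44 in EpiSCf, 11.47 and 11.47 in ESCm and 11.03 and 10.85 in EpiSCm. It fell 1.44-fold in the male pair on the probe used (adjusted p = 0.0027), while its second probe rose there by 0.54 (adjusted p = 0.002). No direction is therefore given for Prmt5. In the plot of the female against the male differences, Kdm8, Smarca2, Smarce1 and Jmjd8 lie at the upper right and Kdm3a and Kdm4c at the lower left, with Setd3 and Jmjd1c far down near the female zero.

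**Figure D3:**
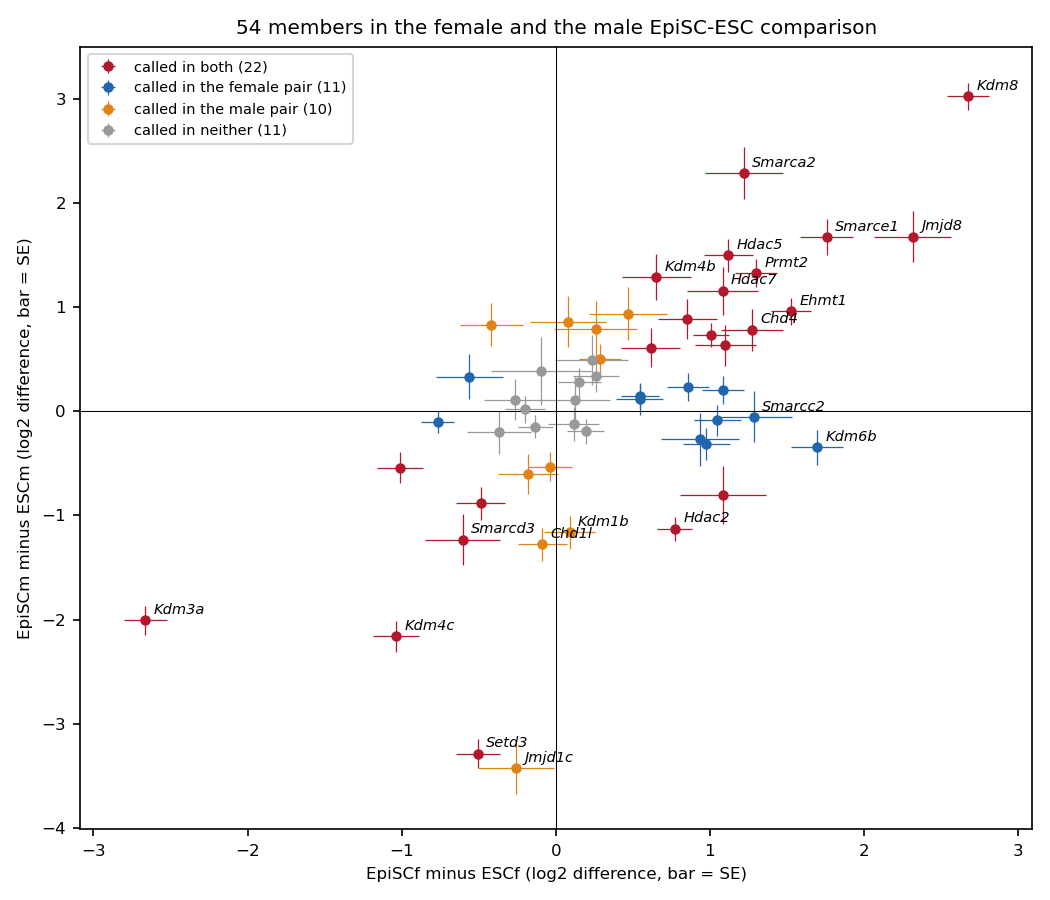
Log2 difference of each of the 54 members in EpiSCf minus ESCf (horizontal) and EpiSCm minus ESCm (vertical), with standard errors from the fit. The 22 members called in both are red; 14 lie in the upper right quadrant, 6 in the lower left and 2 (Hdac2 and Suv39h2) in the lower right.

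The female and the male EpiSC to ES cell differences were themselves compared. They differed for 21 members (38.9%, against 50.9% of all genes), 16 with a higher female value (29.6%, against 23.1%) and 5 with a lower one (9.26%, against 27.8%); with median scaling the counts were 32 and 0, and the median of all genes moved from -0.10 to 0.47. The larger differences were for Jmjd1c (log2 3.17, SE 0.35), Setd3 (2.78, SE 0.20), Kdm6b (2.04, SE 0.24), Hdac2 (1.90, SE 0.16) and Suv39h2 (1.89, SE 0.40). Because Suv39h2 passed the detection filter only through EpiSCf, the filter favoured a higher female value for it. Jmjd1c, related to Kdm3a, read 7.83 and 8.29 in ESCm but was detected on neither array of EpiSCm, which made it at least 6.82-fold lower, against 7.10 and 7.06 in ESCf and 6.61 and 7.04 in EpiSCf. Kdm6b rose 3.23-fold in EpiSCf, from 8.47 and 8.58 to 10.35 and 10.10, and read 8.30 and 8.15 in ESCm and 7.69 and 8.08 in EpiSCm. Its second probe gave 1.56 in the female pair and 0.53 in the male pair. Sex, strain, cell line and array set all differ between these pairs and cannot be told apart.

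Setd3, Jmjd1c, Hdac2 and Chd1l were lower on all 8 arrays of the GOF18 family than on any of the other 16, also with median scaling. Setd3 ran from 5.83 to 6.54 with a median of 6.08 on the GOF18 arrays and from 8.18 to 10.23 with a median of 8.93 on the others. For Hdac2 the ranges were 11 to 11.26 (median 11.14) and 11.96 to 12.98 (median 12.27), and for Chd1l 5.40 to 6.39 (median 5.85) and 6.92 to 7.96 (median 7.43). Jmjd1c was detected on 0 of the 8 and on 15 of the 16. Another 3 members were higher on all GOF18 arrays (Prmt1, Setd1a and Setd2), and all 3 overlapped under median scaling. Over all genes 9.01% (805) were lower and 6.78% (606) higher without overlap. With median scaling 10 members and 1335 of all genes were lower without overlap, and 0 members and 77 of all genes higher. These low levels of the 4 genes include EpiSox2mE1 and EpiSox2mE2, which were grown in ES cell medium. GOF18 origin and array set cannot be told apart for any of these genes.

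The EC lines were compared with ESCm and with each other. F9 EC differed from ESCm in 27 members (50%, against 48.5% of all genes), 16 higher (29.6%, against 24.7%) and 11 lower (20.4%, against 23.8%); without ESCm replicate 2 the count was 15. Smarcc1, Jmjd1c, Kdm3a, Kdm1a and Smarcad1 were lower in F9 EC. Kdm1a read 10.34 and 10.22 in F9 EC, the lowest of the 12 groups together with F9-Sox2 (10.70 and 10.58), and was 2.66-fold below ESCm (adjusted p = 2.1e-08). Kdm3a, at 9.41 and 9.50, was 3.10-fold below ESCm (adjusted p = 2.5e-08), with -1.78 on the second probe. Smarcc1, at 8.13 and 8.09 against 9.86 and 9.89, was 3.39-fold lower on the probe used (adjusted p = 2.3e-10) and gave 0.23 on the second probe. Kdm8 (2.18-fold), Kdm4b (2.03-fold), Smarce1 (1.86-fold) and Setd3 (1.83-fold) were higher; the second Kdm8 probe gave 0.18. The summed level of 8 fibroblast and feeder markers was 7.86 to 7.92 in F9 EC and 9.02 to 9.12 in ESCm. That of 7 extraembryonic endoderm markers, of which 1 and 2 were detected on both arrays, was 9.80 to 9.94 and 8.49 to 8.51. Sox7 had means of 9.55 in F9 EC and 5.41 in ESCm, whereas Amn (5.63 against 7.18) and Gata6 (4.91 against 6.23) were lower in F9 EC. The part of these markers was not tested.

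P19 EC differed from F9 EC in 29 members (53.7%, against 55.2% of all genes), 17 higher (31.5%, against 28.1%) and 12 lower (22.2%, against 27.1%). Smarca2 was detected on neither array of F9 EC (5.55 and 4.77) and read 8.81 and 8.35 in P19 EC, at least 7.58-fold higher (log2 3.42, SE 0.25, adjusted p = 1.5e-09). Hdac5 read 8.10 and 8.05 in F9 EC and 10.41 and 10.70 in P19 EC, 5.57-fold higher (log2 2.48, SE 0.16, adjusted p = 2.1e-10), with 1.74 on the second probe. Both P19 EC values for Hdac5 exceeded those of the EpiSC and ES cell groups. Ehmt2 (3.18-fold, adjusted p = 4.9e-08) and Ehmt1 (2.92-fold, adjusted p = 9.7e-09) were both lower in P19 EC on the probes used, at 8.72 and 8.38 against 10.14 and 10.30 for Ehmt2 and at 9.04 and 8.76 against 10.43 and 10.47 for Ehmt1. Second probes of Ehmt2 and Ehmt1 gave -1.58 and -0.58. The third Ehmt1 probe rose in P19 EC by 1.34 (adjusted p = 0.00012), opposite to the others, so no direction is given for Ehmt1 here. Kdm6b, Kdm8, Smarce1 and Kdm1a were also higher in P19 EC, by 2.72, 2.53, 2.37 and 2.23-fold, and the second probes of Kdm6b, Kdm8 and Smarce1 gave 0.83, 0.09 and 1.52. P19 EC had detectable primed markers for 5 of 6 genes and F9 EC for 3 of 6. The summed level of 7 extraembryonic endoderm markers was 8.57 to 8.62 in P19 EC and 9.80 to 9.94 in F9 EC, with 2 and 1 detected on both arrays. Sox7 had means of 4.79 in P19 EC and 9.55 in F9 EC, whereas Gata6 (7.32 against 4.91) and Amn (6.59 against 5.63) were higher in P19 EC. The part of these markers in the chromatin genes was not tested.

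Extra Sox2 in EC cells left nearly all members below the threshold. In F9-Sox2 only Hdac5 was called, at 8.60 and 8.62 against 8.10 and 8.05 (1.45-fold higher, log2 0.53, SE 0.16, adjusted p = 0.041), which is 1.85% of members against 9.89% of all genes (5.39% higher and 4.5% lower). Hdac5 was not called when any 1 of the 4 arrays was left out, and its second probe gave 0.26. Median scaling instead called 0 higher and 2 lower. The summed level of 7 extraembryonic endoderm markers was 8.96 to 9.02 in F9-Sox2 and 9.80 to 9.94 in F9 EC, with 2 and 1 detected on both arrays. Sox7 had means of 8.09 in F9-Sox2 and 9.55 in F9 EC, whereas Amn (6.24 against 5.63) and Gata6 (5.60 against 4.91) were higher in F9-Sox2. The part of these markers was not tested. In P19-Sox2 3 members were called (5.56%, against 10.5% of all genes, of which 5.94% higher and 4.53% lower): Prmt2 rose 1.37-fold (9.77 and 9.68 against 9.29 and 9.25, adjusted p = 0.042), Kdm3a fell 1.44-fold (9.19 and 8.96 against 9.54 and 9.66, adjusted p = 0.02) and Kdm4b fell 1.71-fold (10.01 and 9.28 against 10.41 and 10.43, adjusted p = 0.032). Second probes of Prmt2, Kdm3a and Kdm4b gave 0.62, -0.26 and -0.44, the first of these called. Without either P19 EC array or without P19-Sox2 replicate 2 the count was 0, and median scaling gave 0 higher and 3 lower. Hdac5 in P19-Sox2 read 10.35 and 10.10 against 10.41 and 10.70, and the F9 and P19 responses differed for Hdac5 (log2 0.87, SE 0.23, adjusted p = 0.019), the single member of 54 called for that difference, against 10.1% of all genes (4.85% higher and 5.23% lower). Without F9 EC replicate 2 or P19 EC replicate 2 that count was 0.

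In the arrays labelled Epi-Sox2f, where Sox2 itself was not higher, 21 members differed from EpiSCf (38.9%, against 29.2% of all genes). Only 4 were higher (7.41%, against 13.7%) and 17 lower (31.5%, against 15.5%); median scaling gave 2 and 19. The members' median difference was -0.29 and that of all genes -0.01. Of the 3 H3 lysine 9 methyltransferases of the Ehmt and Suv39h family, Ehmt1 and Ehmt2 were lower on the probes used. Suv39h2 was called lower too, but it passed the detection filter only through EpiSCf, so the filter favoured that fall. With the authors' log2 values 2 of the 3 were called lower. Ehmt1 read 9.38 and 9.33 against 11.36 and 11.26 in EpiSCf, 3.88-fold lower (log2 -1.96, SE 0.13, adjusted p = 1.3e-08). Its second probe fell by 0.64 (adjusted p = 0.0078), whereas the third rose by 1.49 (adjusted p = 0.00023), from a group mean of 5.21 in EpiSCf to 6.70. The probes of Ehmt1 therefore disagree, and its fall rests on the first and second of them. Ehmt2, at 8.23 and 8.35 against 9.29 and 9.23, was 1.96-fold lower (adjusted p = 0.00022), and Suv39h2, at 4.98 and 5.62 against 6.18 and 5.98, was 1.72-fold lower (adjusted p = 0.043) and was detected on 1 of the 2 arrays labelled Epi-Sox2f. The second Ehmt2 probe fell by 1.15. On the probes used the arrays of the groups did not overlap for Ehmt1 or Ehmt2.

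Several motor subunits of the remodelers fell as well. Smarca4 read 7.14 and 7.25 in the arrays labelled Epi-Sox2f against 8.44 and 8.31, 2.26-fold lower (adjusted p = 0.0019), and Chd4 read 9.19 and 9.40 against 10.40 and 10.54, also 2.26-fold lower (adjusted p = 0.00034), with a fall of 0.57 on its second probe and of 1.13 on the third. Setd1a, an H3 lysine 4 methyltransferase, was 2.09-fold lower (7.41 and 7.46 against 8.55 and 8.43, adjusted p = 0.0062) and lost its call without EpiSCf replicate 1. Chd1 was 1.84-fold lower (adjusted p = 0.0022), with -0.46 on a second probe that was not called. The alternative motor Smarca2 read 8.28 and 8.0 against 7.29 and 7.46 and was 1.70-fold higher (adjusted p = 0.029), a call that was lost with median scaling and without any 1 of the 4 arrays. Prmt2 was 1.57-fold higher (adjusted p = 0.0018) and its second probe, at 0.25, was not called. The total number of called members was 9 without EpiSCf replicate 1 and 13 without Epi-Sox2f replicate 1. Naive markers were detected on both arrays for 0 of 8 genes in both groups. The summed level of 8 fibroblast and feeder markers was 9.10 to 9.26 against 8.64 to 8.67. In each group 2 of these 8 were detected on both arrays and 6 on neither. Of the 2, Dcn, which encodes decorin, had a mean of 8.45 against 7.33, whereas Thy1 was lower, at 6.48 against 6.71. The part of these markers in the differences was not tested.

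In the male line with Sox2, kept in EpiSC medium, 7 members were lower in EpiSox2mL2 than in EpiSCm and 0 higher (13% of members, against 24.4% of all genes, of which 12.9% higher and 11.5% lower). The larger falls were 1.62-fold for Setd5 (8.71 and 8.66 against 9.25 and 9.51, adjusted p = 0.013), 1.57-fold for Chd1l (5.40 and 5.60 against 5.91 and 6.39, adjusted p = 0.007), 1.52-fold for Smarcc1 (9.15 and 9.19 against 9.83 and 9.71, adjusted p = 0.00053) and 1.47-fold for Kdm8 (8.37 and 8.30 against 8.82 and 8.96, adjusted p = 0.006). Second probes of Chd1l and Smarcc1 gave 0.42 and 0.08. Without EpiSox2mL2 replicate 1 the count was 2 and without replicate 2 it was 3. Naive markers were detected on both arrays for 7 of 8 genes in EpiSox2mL2 and for 4 of 8 in EpiSCm, yet Kdm3a read 8.94 and 8.98 against 9.21 and 8.95 and Kdm4c 7.37 and 7.44 against 6.99 and 7.09, and neither was called.

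The plot of both EpiSC comparisons shows the OG2 values of the probe used far to the left for Ehmt1 while the GOF18 values lie near 0. The OG2 and GOF18 responses differed for 18 members (33.3%, against 32.4% of all genes), 6 with a higher OG2 value (11.1%, against 15.1%) and 12 with a lower one (22.2%, against 17.3%), and for 11 without Epi-Sox2f replicate 1. Ehmt1 (log2 -2.26, SE 0.18, adjusted p = 1.3e-07) and Ehmt2 (-1.27, SE 0.22, adjusted p = 0.00035) differed most on the lower side, with Ehmt1 at 10.76 and 10.86 in EpiSCm and 11.12 and 11.11 in EpiSox2mL2. On its second probe the Ehmt1 difference was -0.58 and was not called, and on the third it was 1.55 (adjusted p = 0.0023), so no direction is given for Ehmt1. Smarca2 (1.34, SE 0.36), Chd1l (1.16, SE 0.23) and Smarcc1 (1.11, SE 0.15) differed on the higher side, and second probes of Chd1l and Smarcc1 gave -0.69 and -0.34. Sex, strain, array set and the Sox2 level reached all differ between these pairs and cannot be told apart.

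**Figure D4:**
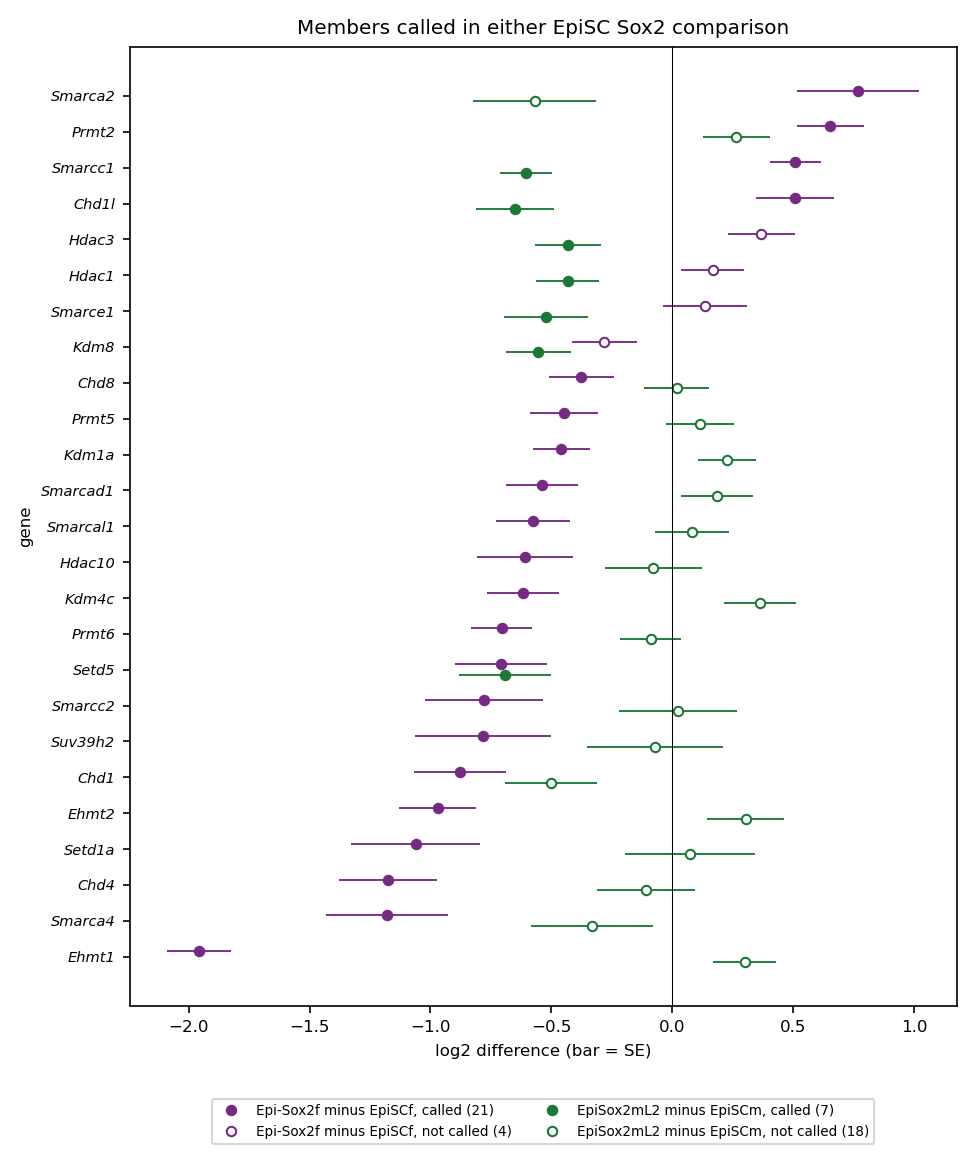
Log2 differences with standard errors for the 25 members called in the arrays labelled Epi-Sox2f against EpiSCf (purple, 21 called) or in EpiSox2mL2 against EpiSCm (green, 7 called); filled points were called. Ehmt1 lies at -1.96 in the first comparison, and Setd5 is the only member called lower in both. Both Ehmt1 values are those of the probe used.

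The Sox2-overexpressing male derivatives grown in ES cell medium, EpiSox2mE1 and EpiSox2mE2, were both set against EpiSox2mL2, so these comparisons share its arrays. Culture medium and derivative differ together in them and cannot be told apart. In EpiSox2mE1 16 members were called (29.6%, against 31.4% of all genes), 11 higher (20.4%, against 14.0%) and 5 lower (9.26%, against 17.3%), and the members' median was 0.17 against 0.00 for all genes. In EpiSox2mE2 21 were called (38.9%, against 35.3%), 15 higher (27.8%, against 15.7%) and 6 lower (11.1%, against 19.6%), with a members' median of 0.21 against -0.01. Median scaling gave 10 higher and 3 lower for EpiSox2mE1 and 4 higher and 7 lower for EpiSox2mE2, where it moved the median of all genes to -0.15. Without either EpiSox2mL2 array the EpiSox2mE2 count was 13.

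Kdm3a rose from 8.94 and 8.98 in EpiSox2mL2 to 10.36 and 10.16 in EpiSox2mE1, 2.45-fold (log2 1.30, SE 0.14, adjusted p = 1.1e-06). In EpiSox2mE2 it read 10.15 and 10.17, 2.30-fold higher (log2 1.20, SE 0.14, adjusted p = 2.6e-06). Its second probe rose by 1.19 and 1.35. The arrays did not overlap, and both lines remained below the 10.83 to 11.23 of the ES cell arrays. Kdm4c read 8.15 and 8.07 in EpiSox2mE1 and 8.01 and 8.04 in EpiSox2mE2 against 7.37 and 7.44, 1.63-fold and 1.54-fold higher (adjusted p = 0.0013 and 0.0031); the second of these was 0.31 and not called with median scaling. Chd1, the remodeler of open chromatin, went from 7.82 and 8.0 to 9.0 and 8.65 in EpiSox2mE1 and to 8.88 and 9.11 in EpiSox2mE2, 1.89-fold (adjusted p = 0.0012) and 2.12-fold (adjusted p = 0.00023). Its second probe rose by 0.64 and 0.94. These Chd1 values exceeded every array of the other groups.

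Smarce1 was 1.81-fold and 1.75-fold higher, at 10.51 and 10.33 in EpiSox2mE1 and 10.18 and 10.56 in EpiSox2mE2 against 9.60 and 9.53, and its second probe rose by 1.01 and 0.97; Smarce1 was also higher in EpiSCs than in ES cells. Kdm8, by contrast, read 8.53 and 8.32 in EpiSox2mE1 and 8.54 and 8.58 in EpiSox2mE2 against 8.37 and 8.30 and was called in neither. On the probe used it stayed far above the 5.68 to 6.18 of the ES cell arrays. The second Kdm8 probe, detected on 7 of the 24 arrays, had means of 4.89 in EpiSox2mE1 and 4.91 in EpiSox2mE2. Its means were 5.17 in ESCm and 5.12 in ESCf, so it was not above the ES cells. Smarca2 likewise read 8.02 and 8.04 and 7.74 and 7.75 against 7.50 and 7.43 and was not called. Smarcd1, a SWI/SNF subunit, was 1.95-fold and 2.35-fold higher (adjusted p = 0.03 and 0.0061), with arrays spread from 7.13 to 8.29 in EpiSox2mE2; without EpiSox2mE2 replicate 2 the latter was a log2 of 0.65 and lost its call, which it also lost without EpiSox2mL2 replicate 1. The former lost its call without any 1 of the 4 arrays, and both lost it with median scaling (0.82 and 0.86). The second Smarcd1 probe rose by 1.12 and 1.16, and the third, at 0.68 and 0.71, was not called. Kdm4b was 2.10-fold higher in EpiSox2mE1 (adjusted p = 0.0012), with 1.59 on its second probe.

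Jmjd8, Kdm6b and Chd5 were lower in EpiSox2mE1 and EpiSox2mE2 than in EpiSox2mL2. Jmjd8 fell from 7.44 and 7.47 to 6.60 and 6.39 in EpiSox2mE1 (1.95-fold, adjusted p = 0.0065) and to 6.35 and 6.26 in EpiSox2mE2 (2.23-fold, adjusted p = 0.0015), and the first lost its call without EpiSox2mE1 replicate 2. Kdm6b fell from 8.45 and 8.07 to 7.56 and 7.36 (1.75-fold, adjusted p = 0.0012) and to 7.28 and 7.23 (2.01-fold, adjusted p = 0.00014). The second Kdm6b probe gave -0.52 in EpiSox2mE1, not called, and fell by 0.79 in EpiSox2mE2. Chd5, a CHD remodeler known from neurons, went from 6.35 and 6.0 to 5.21 and 5.63 in EpiSox2mE1 (1.68-fold lower, adjusted p = 0.026) and to 5.29 and 4.57 in EpiSox2mE2 (at least 1.72-fold lower, adjusted p = 0.00066). The first of these lost its call without EpiSox2mL2 replicate 1 or EpiSox2mE1 replicate 1. Chd5 passed the detection filter only through EpiSCm and EpiSox2mL2, so the filter favoured both falls. Between EpiSox2mE2 and EpiSox2mE1 Prmt6, which dimethylates arginine 2 of histone H3, was the single member called (9.46 and 9.28 against 8.91 and 8.82, 1.42-fold higher, adjusted p = 0.039; 1.85% of members against 2.38% of all genes, 1.12% higher and 1.27% lower), and it was not called with median scaling or without either EpiSox2mE1 array. Naive markers were detected on both arrays for 3 of 8 genes in EpiSox2mE1, 4 of 8 in EpiSox2mE2 and 7 of 8 in EpiSox2mL2, and primed markers for 6, 6 and 5 of 6. The summed level of 5 neural markers was 7.52 to 7.93 in EpiSox2mE1, 7.63 to 8.12 in EpiSox2mE2 and 8.41 to 8.42 in EpiSox2mL2. That of 8 fibroblast and feeder markers was 8.75 to 8.84 in EpiSox2mE1, 8.96 to 9.23 in EpiSox2mE2 and 8.47 to 8.74 in EpiSox2mL2. The part of these marker shifts in the chromatin genes was not tested.

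**Figure D5:**
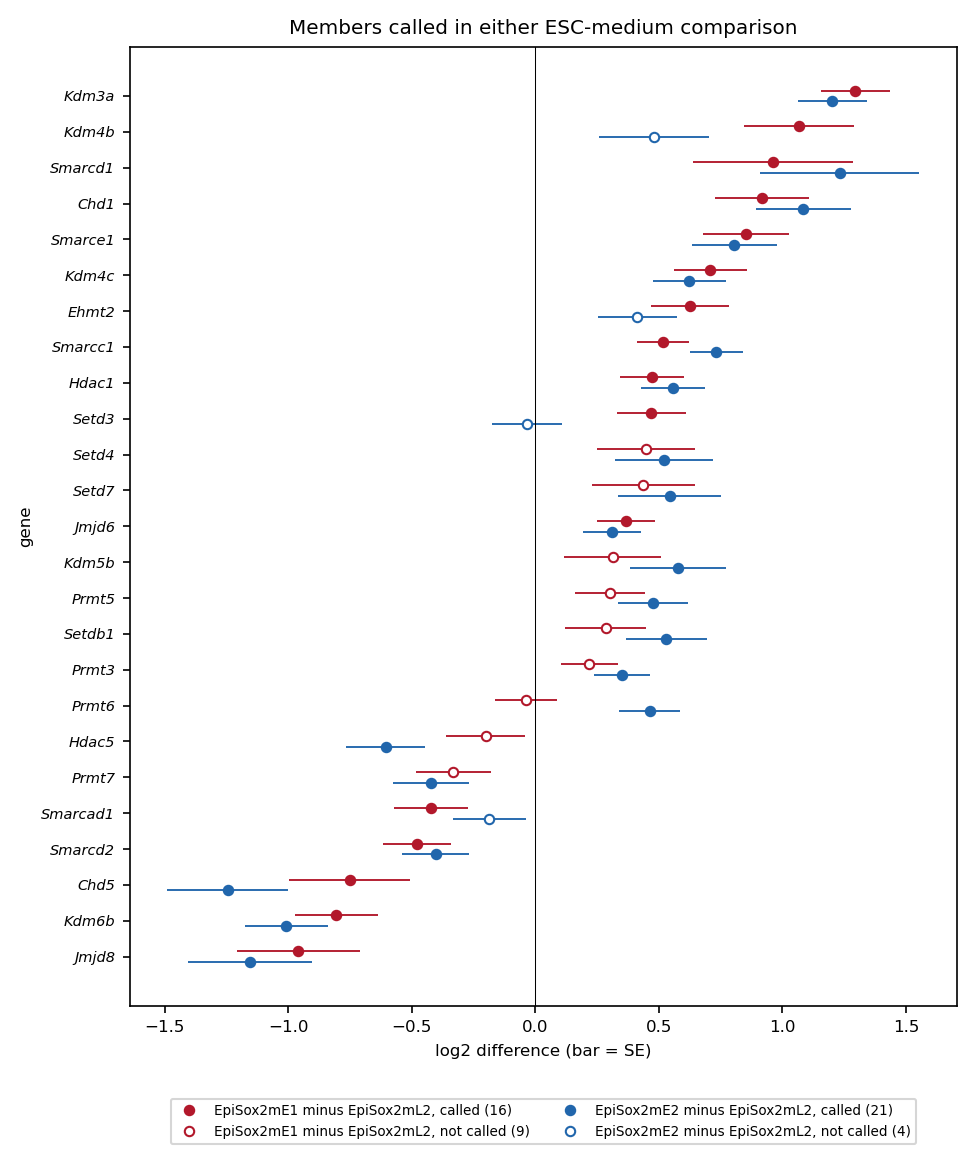
Log2 differences with standard errors for the 25 members called in EpiSox2mE1 (red) or EpiSox2mE2 (blue) against the same 2 EpiSox2mL2 arrays; filled points were called. Kdm3a lies at 1.30 and 1.20 at the top, and Jmjd8 and Kdm6b lie to the left of 0.

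Partners of these enzymes were read from separate lists of complex subunits. Of 9 measured SWI/SNF partners, 4 rose and 1 fell in EpiSCf against ESCf, where 33% of all genes rose and 27.4% fell, and 4 rose and 2 fell in EpiSCm against ESCm (3 and 5 with median scaling), where 41.3% rose and 28.7% fell. Bcl11b, a zinc finger subunit of neural and lymphoid complexes, was at least 11.8-fold higher in EpiSCf (adjusted p = 8.4e-12) and 4.18-fold higher in EpiSCm (adjusted p = 7.7e-08), and its paralog Bcl11a was at least 15.5-fold higher in EpiSCf (adjusted p = 3.1e-11). Actl6a, the actin-related subunit of the ES cell complex, was 7.80-fold lower in EpiSCm (adjusted p = 2.1e-12). Of 10 heterochromatin partners, 1 rose and 3 fell in the female pair and 0 rose and 6 fell in the male pair, where their median was -1.09 against 0.18 for all genes (0 and 9 with median scaling); Morc3, a nuclear body ATPase, fell 4.67-fold and 4.27-fold. Of 8 NuRD partners, 6 fell and 0 rose in the arrays labelled Epi-Sox2f (5 fell and 0 rose with median scaling), where 15.5% of all genes fell and 13.7% rose. Their median was -0.51 against -0.01 for all genes, and Chd4 fell there too. Mta3 fell 1.66-fold (adjusted p = 0.0012) and Mta1 1.69-fold (adjusted p = 0.022), while Gatad2b has only a bound of at least 1.10-fold. Among 11 Sin3, CoREST and NCoR partners 1 rose and 7 fell in P19 EC against F9 EC, where 28.1% of all genes rose and 27.1% fell, among them the CoREST proteins Rcor1 (2.08-fold, adjusted p = 3.9e-05) and Rcor2 (1.79-fold, adjusted p = 2.3e-05). Against EpiSox2mL2, Rcor2 was 1.90-fold higher in EpiSox2mE1 and 1.69-fold higher in EpiSox2mE2. The latter was not called with median scaling, under which none of the 11 rose.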

How the data were processed

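Total RNA (300 ng input per the labels' protocols) of 24 samples in 12 groups of 2 was hybridised to MouseRef-8 v2 BeadChips. The deposited table holds 1 probe intensity and 1 detection p-value per array, as exported with no further normalization per the file headers. The authors also deposited processed log2 values, and RMA, lumi and BeadStudio 3.2 are listed, without a role, per the submitters' processing notes. Each column of these log2 values has a median of 3.68, and their median correlation with the values used here was 0.991 over tested genes; their centring step is not given in the sources used here. 0 columns of per-sample values were left unmapped.

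Intensities were corrected with limma's normexp fit (limma 3.58.1 in R 4.3.3, offset 16), quantile normalized and put on the log2 scale. Of 25697 probes, 23978 carry 1 gene symbol and 1719 none, and 23962 were updated through RefSeq gene identifiers. Probes had to pass a detection p of 0.01 on each array of some group (13082 did), and the probe with the highest mean stood for each of 8932 genes; only the members had to be autosomal. One linear model with a mean per group was fitted over all 24 arrays (12 residual and 6.13 prior degrees of freedom). Differences were called at a Benjamini-Hochberg adjusted p under 0.05 over all tested genes. The small number of arrays limits the precision. Differences of differences used the same fit.

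The genes and lists were chosen with earlier results of these data known. The text names up to 6 largest rises and 6 largest falls per comparison, up to 5 differences each way, up to 4 members per family with the widest range, and 13 genes fixed by role; genes that separated the GOF18 arrays, Suv39h2 and Setd5 were named after their values were seen where the rule did not name them. Replicate numbers did not pair the samples: deviations of same-numbered arrays correlated between -0.166 and 0.0726 over the comparisons. Alternatives were median scaling, an offset of 50, the authors' log2 values, no detection filter, the second probe of a gene, the third probe (added after seeing the data), a replicate block, fits of only the groups compared and leaving out each array. The script was tested on simulated data. Promoter windows are RefSeq's, on GRCm38.p6.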

Additional observations from a re-analysis of the deposited data

Results flagged for a closer look

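The difference between the female and the male EpiSC to ES cell comparison passed limma's test for 21 members. Those named are, as log2 female minus male, Jmjd1c (3.17), Setd3 (2.78), Kdm6b (2.04), Hdac2 (1.90), Suv39h2 (1.89), Smarcc1 (-0.66), Kdm3a (-0.66), Kdm4a (-0.90), Smarca2 (-1.07) and Hdac4 (-1.25). With median scaling none of the 5 negative differences kept its call. The detection filter, which Suv39h2 passed only through EpiSCf, favoured the difference of that gene.

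The response to Sox2 differed between F9 and P19 for 1 member, Hdac5 (log2 0.87, F9 minus P19).

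The response to Sox2 differed between the OG2 and the GOF18 EpiSCs for 18 members, where the arrays labelled Epi-Sox2f did not show higher Sox2. Those named are, as log2 OG2 minus GOF18, Smarca2 (1.34), Chd1l (1.16), Smarcc1 (1.11), Hdac3 (0.80), Smarce1 (0.66), Chd5 (-1.06), Chd4 (-1.07), Setd1a (-1.13), Ehmt2 (-1.27) and Ehmt1 (-2.26). The calls for Smarce1 and Setd1a were lost with median scaling, and the third Ehmt1 probe gave 1.55, the opposite direction. Chd5 passed the detection filter only through EpiSCm and EpiSox2mL2. It was not detected on any array of EpiSCf or on those labelled Epi-Sox2f, so its OG2 part is a difference between undetected values.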

How the results depend on the processing

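Of 113 differences of named members, median scaling kept 94 on their side of the threshold, the authors' log2 values 100, an offset of 50 kept 112, no detection filter 101, fits of only the groups compared 96 and the replicate block 109; for most of those not kept the direction held and the call was lost. Median scaling reversed the female minus male difference of Smarcc1 to 0.13 and of Kdm3a to 0.12. A second probe, available for 65 of these differences, kept 40 calls. It reversed Smarcc1 in EpiSCf minus ESCf (0.10), F9 EC minus ESCm (0.23), the arrays labelled Epi-Sox2f (-0.26), EpiSox2mL2 (0.081), the female minus male difference (0.24) and the OG2 minus GOF18 difference (-0.34), Chd1l in the arrays labelled Epi-Sox2f (-0.28), EpiSox2mL2 (0.42) and the OG2 minus GOF18 difference (-0.69), and Kdm8 in EpiSCm minus ESCm (-0.14). The third probe of a gene, an alternative chosen after seeing the data and available for 21 of these differences, kept 10 calls and reversed Ehmt1 in P19 EC minus F9 EC (1.34), in the arrays labelled Epi-Sox2f (1.49) and in the OG2 minus GOF18 difference (1.55). The cause was not tested.

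Counts of called members moved by over 1.5 times as follows. Median scaling gave 2 for F9-Sox2, 11 for EpiSox2mE2 minus EpiSox2mL2, 0 for EpiSox2mE2 minus EpiSox2mE1, 32 for the female minus male difference and 2 for the F9 minus P19 difference. An offset of 50 gave 3 for F9-Sox2 and 2 for the F9 minus P19 difference. The authors' log2 values gave 0 for F9-Sox2, 1 for P19-Sox2 and 2 for EpiSox2mE2 minus EpiSox2mE1, and no detection filter gave 0 for F9-Sox2 and 1 for P19-Sox2. Samples share only a replicate number, and the replicate block gave 0 for F9-Sox2 and 0 for EpiSox2mE2 minus EpiSox2mE1. With the numbers of EpiSox2mE2 crossed, an alternative chosen after seeing the data, the counts of its 2 comparisons stayed within 1.5 times. Fits of only the groups compared, which leave 2 residual degrees of freedom for a pair of groups, gave 2 for F9-Sox2, 0 for P19-Sox2, 0 for EpiSox2mL2 minus EpiSCm, 9 for EpiSox2mE2 minus EpiSox2mL2, 0 for EpiSox2mE2 minus EpiSox2mE1 and 2 for the F9 minus P19 difference.

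Leaving out 1 array at a time, where the remaining array is assumed to vary like the other groups, gave 9 to 15 for the arrays labelled Epi-Sox2f, 13 to 24 for EpiSox2mE2 minus EpiSox2mL2, 2 to 7 for EpiSox2mL2, 15 to 21 for F9 EC minus ESCm, 11 to 17 for the OG2 minus GOF18 difference, 0 to 2 for P19-Sox2, 0 to 1 for EpiSox2mE2 minus EpiSox2mE1 and for the F9 minus P19 difference, and 0 for F9-Sox2. The other comparisons stayed within 1.5 times, at 29 to 31 for EpiSCf minus ESCf and 28 to 34 for EpiSCm minus ESCm. Members near the detection limit, such as Suv39h2, Hdac7 and Jmjd1c in GOF18 cells, have only a bound there.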
